A study of Mus musculus with 20 samples.

Results

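The hippocampus of mice infused with small RNAs (sRNAs) from control individuals was compared with that of mice infused with vehicle alone, across 25190 genes. The comparison took the 10 libraries labelled Control (5 mice) and Vehicle (5 mice) out of the 20 libraries of the series, and it was repeated without the library of Vehicle mouse 4, which the tables of the study leave out. All 10 mice were wild-type males of the C57BL/6JOlaHsd strain, 4 months old by the labels, and all had cannulas placed above the CA1 region of the dorsal hippocampus, received bilateral infusions and went through behavioural tests, with tissue taken 24 h after the last test. The vehicle was artificial cerebrospinal fluid. Mice of the Control group were given sRNAs extracted from the post-mortem hippocampus of control individuals and mixed into 1 pool, so the 5 Control mice share a single RNA preparation and the comparison cannot tell a property of human sRNA in general from one of that pool. Neither group was left without a cannula, so the effect of surgery and infusion is common to both. The labels call the tissue hippocampus in 1 place and CA1 in another.

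Vehicle is the reference that asks what the infusion of human RNA does by itself, before any difference between donors is read. Small RNAs such as microRNAs guide Argonaute proteins to partly matching messenger RNAs and lower their level or translation, whereas foreign RNA can also be recognised by sensors such as the Toll-like receptors and RIG-I, which switch on interferons and the interferon-stimulated genes. The hippocampus itself holds pyramidal and granule neurons, interneurons and glia, and it borders the ventricle, whose wall carries ciliated ependymal cells and the choroid plexus.

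The libraries held 20588280 to 25142848 counts in Vehicle mice and 21928988 to 25543939 in Control mice. Levels are given as CPM, counts per 1000000 counts of a library scaled by its TMM factor, and 3 counts, taken as the floor of detection, correspond to 0.119 to 0.140 CPM in these 10 libraries. No pair of libraries was a repeat of 1 library, since counts of any pair had a chi-square of at least 11.9 per degree of freedom, where sampling noise alone gives about 1. Log2 CPM of 2 libraries correlated at 0.976 to 0.990 within Vehicle, 0.975 to 0.989 within Control and 0.974 to 0.991 across the groups, over genes with a mean count of at least 10. Several libraries stood apart before any comparison. In Vehicle 4 the 15 choroid plexus markers summed to 9467 CPM, against 225 to 1308 CPM in the other Vehicle mice, and in Control 3 they summed to 2403 CPM, against 128 to 780 CPM in the other Control mice. Vehicle 1 and Vehicle 2 held 5119 and 4979 CPM of 7 genes that resemble ribosomal RNA, against 572 to 1940 CPM in the other 8 libraries. Because these are bulk libraries of dissected tissue, fewer cells of a type and less RNA per cell cannot be told apart.

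No gene passed the test between Control and Vehicle mice once p-values were adjusted over all genes. In edgeR's quasi-likelihood test 0 of 25190 genes passed an adjusted p of 0.05, and the smallest adjusted p was 0.734, with 1672 genes at an unadjusted p under 0.05. DESeq2 also gave 0 genes, with a smallest adjusted p of 0.0825 and 1563 genes at an unadjusted p under 0.05. Without Vehicle 4 both counts remained at 0, and 1479 genes by edgeR and 1351 by DESeq2 had an unadjusted p under 0.05. The threshold used by the study, an unadjusted p under 0.05 together with a log2 fold change of 0.3 or more in either direction, was passed by 427 genes higher in Control mice (1.70% of those tested) and by 858 genes lower (3.41%). Below, "rose", "fell" and "called" refer to this threshold, which does not correct for the number of genes. Without Vehicle 4 there were 416 genes higher (1.65%) and 708 lower (2.81%), of which 294 and 521 were among the genes called with all libraries. Without Vehicle 1 and 2 there were 257 higher (1.02%) and 540 lower (2.14%), and without Control 1 and 2 253 higher (1.00%) and 628 lower (2.49%). The median log2 fold change of all genes was −0.01.

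**Figure D1:**
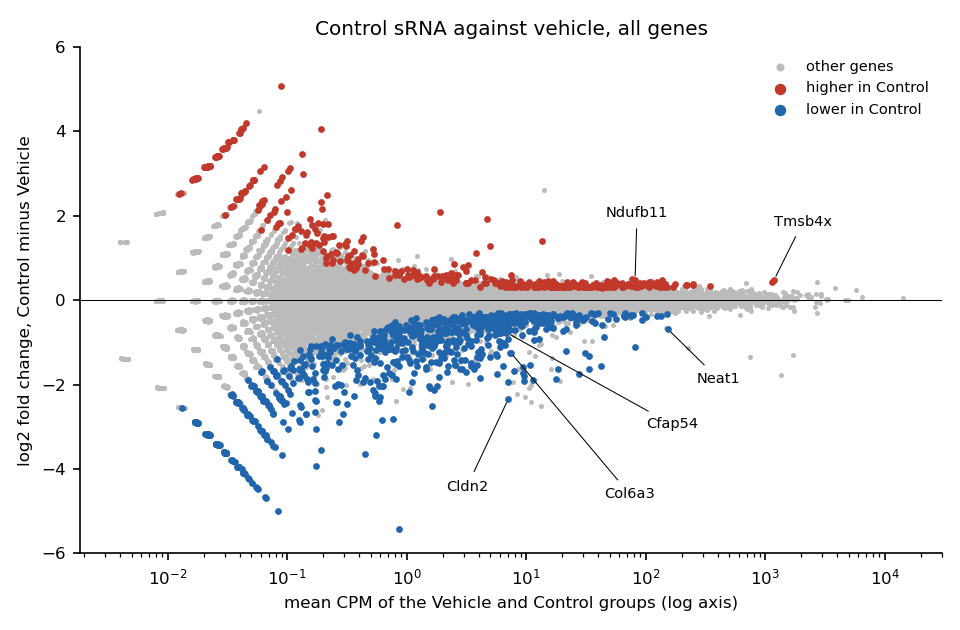
Log2 fold change of Control over Vehicle (vertical axis) against the mean CPM of both groups (horizontal axis, logarithmic) for all 25190 genes, 1 point a gene. The 427 genes past the unadjusted threshold upward are red and the 858 past it downward are blue. Red genes at high levels lie close to the line of 0, with Tmsb4x at a log2 fold change of 0.48, whereas blue genes above 1 CPM reach larger differences, such as −1.24 for Col6a3.

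The genes that rose with the smallest p are given first. Adk, which encodes adenosine kinase, the enzyme that clears adenosine and in the adult brain is found mainly in astrocytes, had the smallest p of those with a mean count of at least 10. Its level was 43.6, 43.5, 45.1, 41.1 and 46.7 CPM in Vehicle 1 to 5 and 53.8, 58.0, 50.3, 49.2 and 60.5 CPM in Control 1 to 5. All Control mice lay above all Vehicle mice, the means being 44.0 ± 2.07 and 54.4 ± 4.85 CPM (SD, n = 5 each). The log2 fold change was 0.31 with an SE of 0.08 (edgeR's quasi-likelihood test, unadjusted p = 0.000494, adjusted p = 0.734), and 0.28 without Vehicle 4 (unadjusted p = 0.00222 by edgeR). It was 0.278 without Control 1 and 2 and 0.296 without Vehicle 1 and 2. Each of these reduced sets left Adk under the log2 fold change of 0.3, so its call was lost.

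The other 9 upregulated genes with the smallest p rose by 0.31 to 0.59 on the log2 scale, each with an adjusted p of 0.734 by edgeR. H2bu2, a histone H2B gene, measured 9.65, 12.5, 9.93, 10.8 and 11.5 CPM in the Vehicle mice and 16.8, 17.5, 13.7, 12.6 and 14.2 CPM in the Control mice, with no overlap between the groups. Ndufb11, a subunit of respiratory complex I, measured 60.9, 60.0, 68.5, 78.8 and 71.8 CPM in Vehicle 1 to 5 and 113, 123, 84.7, 68.1 and 85.1 CPM in Control 1 to 5. The high values of Ndufb11 were those of Control 1 and 2, and Control 4 lay within the Vehicle range. Ndufb4, another subunit of complex I, rose by 0.43, and Mtln, which encodes the mitochondrial micropeptide mitoregulin, by 0.44. Thrsp, a lipogenic protein responsive to thyroid hormone, rose by 0.43, Polr2d, a subunit of RNA polymerase II, by 0.41, and Tceal1, an X-linked gene of the elongation factor A-like family, by 0.38. Prpsap2, which associates with phosphoribosyl pyrophosphate synthetase, rose by 0.31 and the processed pseudogene Gm10288 by 0.59. Without Control 1 and 2 the log2 fold changes of Ndufb11, Polr2d, Prpsap2 and Mtln were 0.221, 0.258, 0.236 and 0.296, each under 0.3. Those of H2bu2, Tceal1, Thrsp, Ndufb4 and Gm10288 were then 0.31 to 0.59.

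Among the genes that rose, the 5 with the highest level were Tmsb4x, Cst3, Stmn3, Dynll1 and Tpt1. Tmsb4x, which encodes the actin-sequestering peptide thymosin beta-4, measured 778, 855, 926, 1031 and 1353 CPM in Vehicle 1 to 5 and 1805, 1897, 1229, 842 and 1130 CPM in Control 1 to 5. Cst3, the secreted protease inhibitor cystatin C, measured 838, 938, 996, 1031 and 1017 CPM and then 1682, 1701, 1040, 835 and 1241 CPM in the same order. For both genes Control 1 and 2 were far above every Vehicle mouse, and Control 4 was not above the Vehicle mean. Their log2 fold changes were 0.48 (SE 0.20) and 0.43 (SE 0.19). Leaving out Control 1 and 2 brought both log2 fold changes to 0.11. Stmn3, a microtubule-destabilising protein of neurons, rose by 0.34. Dynll1, a light chain of dynein, rose by 0.36 and Tpt1, the translationally controlled tumour protein, by 0.38. Without Control 1 and 2 the log2 fold changes of Stmn3, Dynll1 and Tpt1 were 0.12, 0.14 and 0.08. Control 4 lay below the Vehicle mean for each of them.

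**Figure D2:**
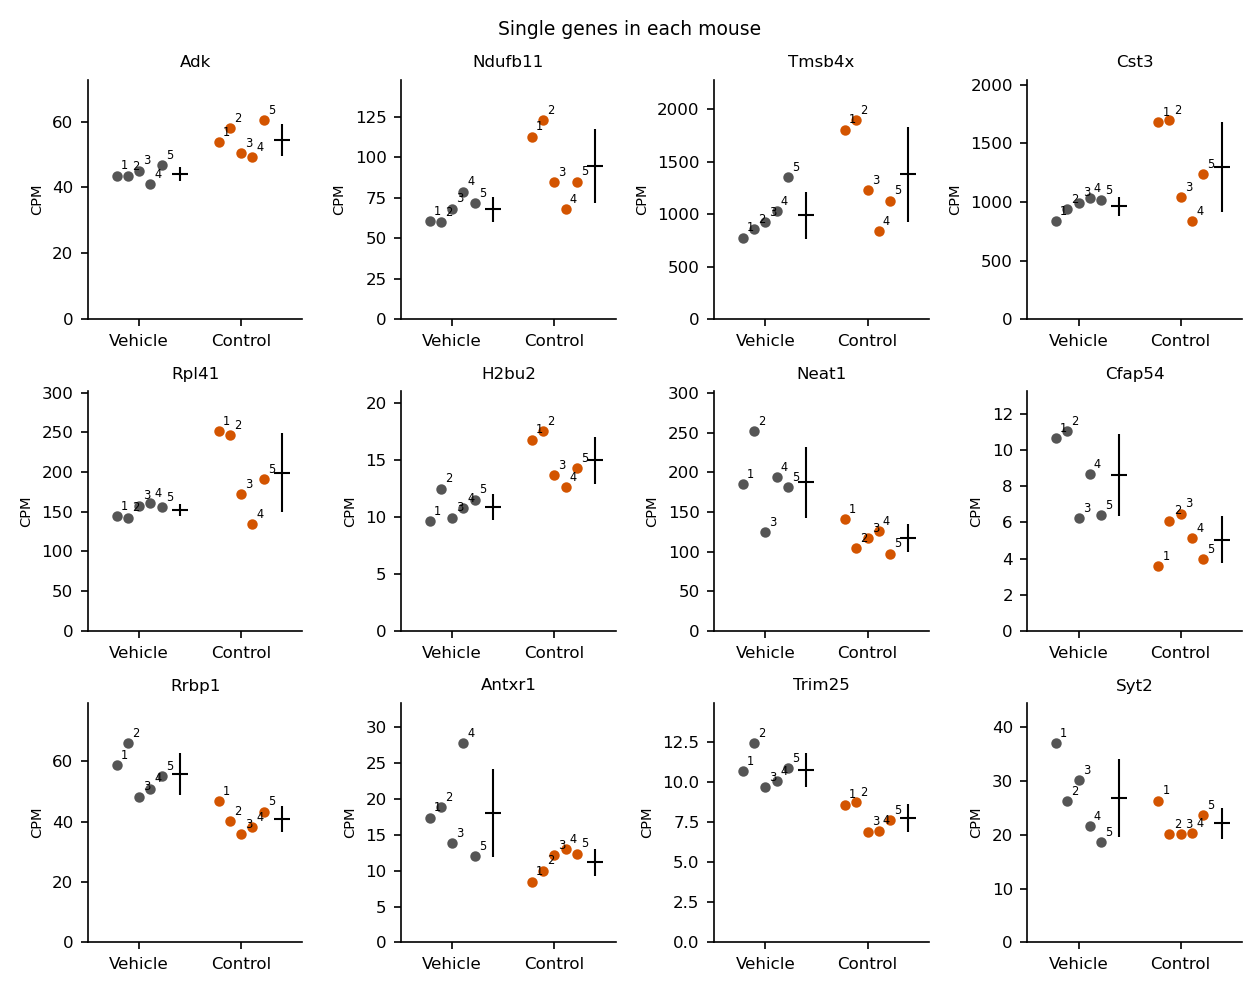
CPM of 12 genes in each mouse (vertical axes, starting at 0), with the mouse number beside each point, Vehicle mice in grey and Control mice in orange. The black marks give the mean and SD of 5 mice. Adk, H2bu2, Rrbp1 and Trim25, picked for a small p or a call in this same comparison, do not overlap between the groups. Control 1 and 2 are the highest mice for Ndufb11, Tmsb4x, Cst3 and Rpl41, and Syt2 overlaps.

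Genes of the cytosolic ribosome were mostly higher in Control mice. The 88 measured ribosomal protein genes, whose products form the small and large ribosomal subunits, had a median log2 fold change of 0.25, and 86 of them were above 0. Of the 88, 20 rose (22.7%, against 1.70% of all genes) and 0 fell, and without Vehicle 4 11 rose, 0 fell and the median was 0.24. The members called with and without Vehicle 4 were Rpl6, Rpl10, Rpl17, Rpl35, Rpl36, Rpl38, Rpl41, Rps7, Rps12, Rps13 and Rps26. Rps13 had the highest log2 fold change of the 20, at 0.50 (SE 0.19, unadjusted p = 0.0155 and adjusted p = 0.734 by edgeR).

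The level of these genes followed 2 of the 5 Control mice. Summed over the 88 genes it was 7575, 7373, 8541, 7905 and 9856 CPM in Vehicle 1 to 5 and 11858, 11394, 8709, 7664 and 9462 CPM in Control 1 to 5. Control 1 and 2 exceeded every Vehicle mouse, and the other 3 Control mice lay within the Vehicle range. Leaving out Control 1 and 2 left 0 of the 88 genes called and a median of 0.07. Leaving out Vehicle 1 and 2, the Vehicle mice with the lowest sums, also left 0 called, with a median of 0.17. Rpl41, which encodes one of the smallest proteins of the ribosome, measured 145, 143, 158, 160 and 156 CPM in Vehicle mice and 251, 246, 173, 135 and 191 CPM in Control mice.

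Ribosomal protein genes are transcribed in step across tissues, and their promoters often carry sites for ETS-family factors, whose core letters include CCGGAAG. To show such start regions, the sequences of 3 called members are given 5′ to 3′ on the strand of the gene, from 250 bases before the transcription start to 30 bases after it (RefSeq, GRCm38.p6), with CCGGAAG in capitals. They are chr5:121204251-121204530 on the plus strand for Rpl6, chr11:114668330-114668609 on the plus strand for Rpl38 and chr10:128549139-128549418 on the minus strand for Rpl41.
Rpl6: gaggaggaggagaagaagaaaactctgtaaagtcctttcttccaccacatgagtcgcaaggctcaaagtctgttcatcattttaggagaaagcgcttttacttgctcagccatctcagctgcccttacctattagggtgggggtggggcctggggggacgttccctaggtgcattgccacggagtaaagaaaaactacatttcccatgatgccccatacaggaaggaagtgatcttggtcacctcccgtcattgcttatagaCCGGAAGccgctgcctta
Rpl38: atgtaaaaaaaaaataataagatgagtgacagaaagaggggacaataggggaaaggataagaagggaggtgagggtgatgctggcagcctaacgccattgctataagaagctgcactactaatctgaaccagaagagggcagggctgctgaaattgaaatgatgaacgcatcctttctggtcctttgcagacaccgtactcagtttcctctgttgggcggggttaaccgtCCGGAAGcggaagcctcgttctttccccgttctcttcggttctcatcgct
Rpl41: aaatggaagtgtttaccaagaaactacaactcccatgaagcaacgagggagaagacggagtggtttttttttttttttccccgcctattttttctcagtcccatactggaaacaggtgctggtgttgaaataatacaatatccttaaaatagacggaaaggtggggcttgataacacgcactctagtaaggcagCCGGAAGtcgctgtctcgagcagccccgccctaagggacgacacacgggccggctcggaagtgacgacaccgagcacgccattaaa
Searched on both strands, CCGGAAG was found in 27 of 76 start windows of ribosomal protein genes (35.5%), each 300 bases long, and in 8.86% of the 32851 windows of all genes. Of the 20 called ribosomal protein genes 16 had a window and 10 of these held the letters. Counted from the start as position 1, with no position 0, the letters begin at position 13 in Rpl6, −20 in Rpl38 and −56 in Rpl41. Other strings were searched too. Windows of ribosomal protein genes held AAGATGGCG in 7.89%, CTTTTCC in 15.8% and GTTGCCATG in 0%, against 1.40%, 8.06% and 0.773% of all windows. CCGGAAG was also in 22.7% of the windows of nuclear oxidative phosphorylation genes. A match of so few letters is a description and not evidence of binding.

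Nuclear genes of oxidative phosphorylation and pseudogenes of ribosomal proteins showed the same mice on top. Both lists were put together after the values had been seen. Of 90 nuclear genes named for subunits of respiratory complexes I to V, 15 rose (16.7%, against 1.70% of all genes) and 1 fell, with a median log2 fold change of 0.22, and without Vehicle 4 21 rose and 0 fell. The gene that fell, Cox6b2, is the testis form of a cytochrome c oxidase subunit. Cox7b, a subunit of complex IV, measured 91.3, 87.2, 112, 114 and 126 CPM in Vehicle 1 to 5 and 164, 182, 142, 99.8 and 126 CPM in Control 1 to 5, a log2 fold change of 0.43 (SE 0.13). Uqcrq, a subunit of complex III, rose by 0.42. Without Control 1 and 2 the median of the 90 genes was 0.02, with 1 gene up and 1 down, and without Vehicle 1 and 2 it was 0.13, with 2 up and 1 down. The 26 genes encoded by mitochondrial DNA had 0 calls and a median of 0.01. Of 139 ribosomal protein pseudogenes, 15 rose (10.8%, against 1.70% of all genes) and 0 fell, with a median of 0.41. Without Control 1 and 2 4 of these pseudogenes rose and 5 fell, with a median of 0.11, and without Vehicle 1 and 2 12 rose and 0 fell, with a median of 0.39. Processed pseudogenes are retrocopies of messenger RNAs that can take up reads of their parent genes. Of the 2060 genes annotated as such, 103 rose (5.00%, against 1.70% of all genes) and 25 fell (1.21%, against 3.41%).

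**Figure D3:**
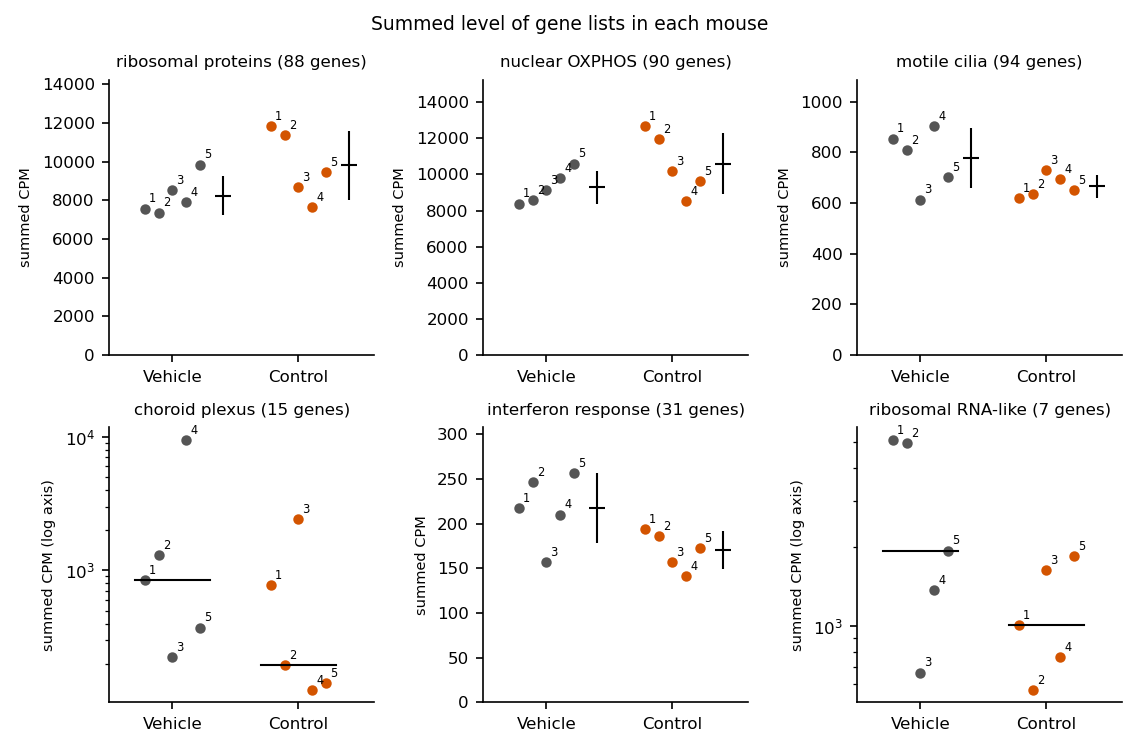
Summed CPM of 6 gene lists in each mouse (vertical axes, logarithmic for choroid plexus and ribosomal RNA-like genes), with the mouse number beside each point. Black marks give the mean and SD of 5 mice on linear axes and the median on logarithmic ones. Control 1 and 2 are the highest mice for ribosomal proteins and oxidative phosphorylation (OXPHOS), Vehicle 4 for choroid plexus at 9467 CPM, and Vehicle 1 and 2 for ribosomal RNA-like genes.

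Across coding genes the median difference followed the length of the transcript. In 8 groups of about equal size by summed exon length, among coding genes with a mean count of at least 10, the median log2 fold change went from 0.13 in the shortest group (255 to 2064 bases, 1797 genes) to −0.06 in the longest (9288 bases and more, 1796 genes), falling at each step. The shortest group held 127 genes that rose and 35 that fell. In the longest group 0 rose and 68 fell. Over all 14364 of these coding genes 200 rose and 492 fell, where 1.70% and 3.41% of all genes did. The groups in between held 54 to 85 genes that fell, so the longest group did not stand out by its falling genes. The median length was 1606 bases for coding genes that rose, 5227 bases for those that fell and 4541 bases for all. Genes of the shortest group took 8.33, 8.66, 8.80, 9.89 and 10.2% of the counts in Vehicle 1 to 5 and 10.7, 10.4, 10.1, 8.32 and 9.57% in Control 1 to 5. The 2 highest shares were again those of Control 1 and 2, and Control 4 and Vehicle 1 had the lowest. Leaving out Vehicle 4 kept the medians at 0.13 and −0.06, whereas leaving out Control 1 and 2 gave −0.002 in the shortest group and 0.03 in the longest. The part of transcript length in the differences of single genes was not tested.

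**Figure D4:**
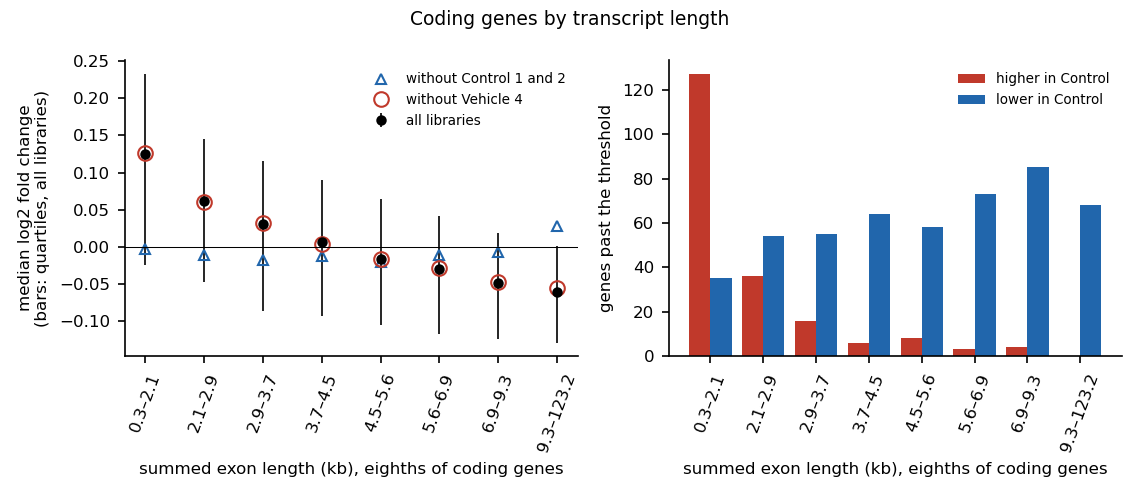
Left, median log2 fold change of Control over Vehicle (vertical axis) in 8 groups of coding genes by summed exon length in kilobases (horizontal axis), with quartiles as bars. Right, the number of genes past the threshold in each group. The median falls from 0.13 to −0.06 with length and is close to 0 in every group without Control 1 and 2, and the 127 upward calls of the shortest group decline to 0 in the longest.

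Genes that fell included several long transcripts. Neat1, the long noncoding RNA that scaffolds nuclear paraspeckles, was the most abundant of them. It measured 185, 252, 125, 194 and 182 CPM in Vehicle 1 to 5 and 142, 104, 117, 126 and 97.4 CPM in Control 1 to 5, with means of 187 ± 45.1 and 117 ± 17.5 CPM (SD, n = 5 each). All Control mice except 1 and 4 lay below every Vehicle mouse, Vehicle 3 being the lowest of its group. The log2 fold change of Neat1 was −0.68 (SE 0.16, edgeR's quasi-likelihood test, unadjusted p = 0.000321, adjusted p = 0.734) and −0.67 without Vehicle 4. It kept −0.73 without Control 1 and 2 and −0.51 without Vehicle 1 and 2.

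Antxr1, a cell-surface receptor that binds collagen, had the smallest unadjusted p of all downregulated genes with a mean count of at least 10 (0.000283 by edgeR, log2 fold change −0.68, SE 0.16), and its change shrank to −0.47 without Vehicle 4, in which it was highest at 27.8 CPM. Rrbp1, a ribosome-binding protein of the rough endoplasmic reticulum, measured 58.7, 66.1, 48.3, 50.9 and 55.0 CPM in Vehicle mice and 46.8, 40.3, 36.0, 38.1 and 43.3 CPM in Control mice, without overlap. Its log2 fold change was −0.45, and −0.48 without Vehicle 4. Whrn, a scaffold protein of sensory hair bundles, fell with a log2 fold change of −0.73 and Cgn, the tight junction protein cingulin, with −0.81. Arhgap28, a GTPase-activating protein, had −1.46 and D7Bwg0826e, a locus of unknown product, had −1.12. Both were below every Vehicle mouse in all 5 Control mice, at levels under 3 CPM. Whrn, Cgn and Arhgap28 were highest in Vehicle 4, at 34.8, 8.07 and 2.41 CPM. Without Vehicle 4 their log2 fold changes shrank to −0.59, −0.57 and −1.004, whereas that of D7Bwg0826e was −1.18. Each of these genes kept its call without Vehicle 4.

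Of the most abundant genes that fell, 4 besides Neat1 were tied to particular Vehicle mice. Cntn2, a cell adhesion molecule of axons and myelin, measured 213, 231, 149, 147 and 107 CPM in Vehicle 1 to 5 and 113 to 148 CPM in Control mice, so that the difference lay in Vehicle 1 and 2. Phldb1 showed the same mice on top, at 194 and 205 CPM against 103 to 132 CPM in the other Vehicle mice. Without Vehicle 1 and 2 the log2 fold change of Phldb1 went from −0.38 to −0.04. In the same 2 mice the 19 oligodendrocyte genes summed to 9157 and 9309 CPM, against 4743 to 5854 CPM in the other Vehicle and 3259 to 7503 CPM in the Control mice. None of these 19 genes was called. Abhd2, a serine hydrolase, and Tbc1d9, a TBC domain protein, were highest in Vehicle 4, at 226 and 190 CPM, and their log2 fold changes of −0.38 and −0.39 both became −0.13 without it.

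Many genes of motile cilia, the beating hairs of ependymal cells that move cerebrospinal fluid, fell. This list of 94 genes was put together after Cfap54, Ttc25 and others had been seen among them, and its count is a description. Of the 94 genes 42 fell (44.7%, against 3.41% of all genes) and 1 rose, with a median log2 fold change of −0.66, and without Vehicle 4 26 fell, 1 rose and the median was −0.60. Leaving out Vehicle 1 and 2 gave 15 that fell, 0 that rose and a median of −0.35, and without Control 1 and 2 27 fell with a median of −0.74. Cfap54, a protein of the ciliary central apparatus, measured 10.7, 11.0, 6.26, 8.69 and 6.42 CPM in Vehicle 1 to 5 and 3.58, 6.11, 6.49, 5.13 and 3.98 CPM in Control 1 to 5. Only Control 3 reached the Vehicle range, and the log2 fold change was −0.77 (SE 0.20, unadjusted p = 0.000631, adjusted p = 0.734 by edgeR).

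Ttc25, a docking factor of the outer dynein arms, fell with a log2 fold change of −0.94, and −0.77 without Vehicle 4. Hydin, another central apparatus protein, measured 5.48, 6.02, 1.61, 3.29 and 2.42 CPM in the Vehicle mice and 0.894, 1.71, 1.84, 1.07 and 0.929 CPM in the Control mice. Vehicle 1 and 2 were the highest for Hydin and Vehicle 3 was within the Control range. Its log2 fold change was −1.54, −1.59 without Vehicle 4 and −0.92 without Vehicle 1 and 2. Foxj1, the transcription factor that drives the motile cilia programme, had a log2 fold change of −0.93 (unadjusted p = 0.0409 by edgeR), and it passed no threshold without Vehicle 4 (−0.80, unadjusted p = 0.0944 by edgeR).

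The choroid plexus, whose epithelium also bears cilia, lay beside these changes. Summed over the 94 cilia genes the level was 854, 808, 613, 904 and 703 CPM in Vehicle 1 to 5 and 618, 634, 731, 693 and 652 CPM in Control 1 to 5. The highest Vehicle and the highest Control mouse for cilia genes, Vehicle 4 and Control 3, were also those with the highest choroid plexus sums. All 15 choroid plexus markers were below 0 with all libraries (median log2 fold change −1.87), and Prlr, Otx2, Clic6, Cldn2 and Kl fell (33.3%, against 3.41% of all genes). Prlr, the prolactin receptor, measured 103 CPM in Vehicle 4 and 4.42 to 16.3 CPM in the other Vehicle mice, against 21.9 CPM in Control 3 and 3.44 to 4.96 CPM in the other Control mice. Without Vehicle 4 0 of the 15 markers were called and the median was −0.24. Without that library Ttr, the abundant thyroid hormone carrier of this tissue, had a log2 fold change of 0.15, after −1.77 with it. The part of choroid plexus or ventricular wall in the dissected pieces in the cilia result was not tested.

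Some collagen genes fell as well, on a list that was also put together after the values had been seen. Of 44 collagen genes 15 fell (34.1%, against 3.41% of all genes) and 0 rose, with a median log2 fold change of −0.34, and without Vehicle 4 9 fell and 1, Col10a1, rose. Leaving out Vehicle 1 and 2 gave 11 that fell, and without Control 1 and 2 there were 8, each with a median of −0.24. Col6a3, a chain of the microfibrillar collagen VI, measured 21.1, 10.7, 4.60, 7.15 and 8.47 CPM in Vehicle 1 to 5 and 2.91, 4.01, 7.23, 3.90 and 4.02 CPM in Control 1 to 5. Vehicle 1 was far above the rest, and only Control 3 reached the Vehicle range. Its log2 fold change was −1.24 (SE 0.31) with all libraries, −1.35 without Vehicle 4 and −0.61 without Vehicle 1 and 2. Other collagens moved with Vehicle 4, such as Col9a3, at −1.31 with and −0.33 without it. Of 16 leptomeningeal genes only Igf2, an insulin-like growth factor made by meninges and choroid plexus, fell (−0.93). This is 6.25% of that list, against 3.41% of all genes. Igf2 passed no threshold without Vehicle 4 (−0.33).

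**Figure D5:**
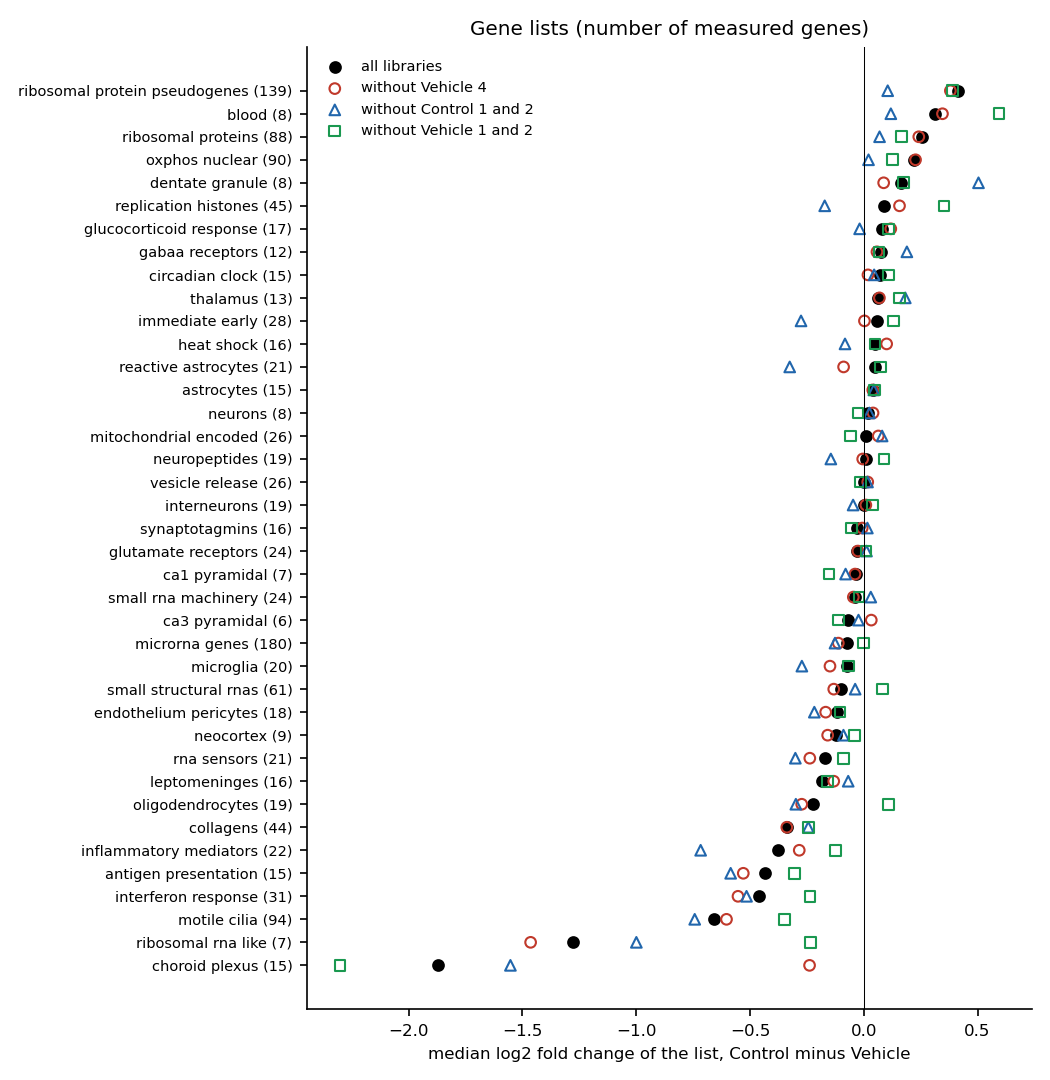
Median log2 fold change of Control over Vehicle (horizontal axis) of 39 gene lists (vertical axis, with the number of measured genes), over all libraries (black), without Vehicle 4 (red circles), without Control 1 and 2 (blue triangles) and without Vehicle 1 and 2 (green squares). The choroid plexus median goes from −1.87 to −0.24 without Vehicle 4, the ribosomal RNA-like median from −1.28 to −0.23 without Vehicle 1 and 2, and the ribosomal protein median from 0.25 to 0.07 without Control 1 and 2.

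No sensor of foreign RNA and no interferon-stimulated gene on the lists rose in the mice that had received human sRNA. Of 21 RNA sensor and signalling genes 0 rose and 2 fell (9.52%, against 3.41% of all genes), with a median log2 fold change of −0.17, and without Vehicle 4 the same counts held with a median of −0.24. Without Vehicle 1 and 2 0 fell and the median was −0.09, and without Control 1 and 2 1 fell and the median was −0.30. Trim25, the ubiquitin ligase that activates RIG-I, measured 10.7, 12.4, 9.69, 10.1 and 10.8 CPM in Vehicle 1 to 5 and 8.58, 8.73, 6.91, 6.96 and 7.61 CPM in Control 1 to 5. Every Control mouse was below every Vehicle mouse, and the log2 fold change was −0.47 (SE 0.17, unadjusted p = 0.00964, adjusted p = 0.734 by edgeR) and −0.49 without Vehicle 4. Ikbke, a kinase that acts upstream of interferon transcription, fell with a log2 fold change of −0.63.

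All 31 interferon-stimulated genes measured had negative log2 fold changes, with a median of −0.46. Only Rsad2, the antiviral protein viperin, fell (−0.84, SE 0.37). This is 3.23% of the list, near the 3.41% of all genes. Rsad2 measured 2.61, 3.51, 1.25, 1.14 and 3.49 CPM in Vehicle mice and 1.48, 1.43, 1.01, 1.47 and 1.28 CPM in Control mice, the high values being those of Vehicle 1, 2 and 5. Summed over the 31 genes the level was 218, 247, 157, 210 and 257 CPM in Vehicle 1 to 5 and 194, 186, 157, 141 and 173 CPM in Control 1 to 5. The groups overlapped through Vehicle 3. Without Vehicle 1 and 2 the median of the 31 genes was −0.24 and 0 fell, with Rsad2 at −0.54. The 15 antigen presentation genes had a median of −0.43 and the 22 inflammatory mediators one of −0.38, with 0 genes called in either list. Without Control 1 and 2 the median of the inflammatory mediators was −0.72 with 2 genes down, and without Vehicle 1 and 2 it was −0.12 with 1 gene up. Genes of 1 list measured in the same mice are not independent observations. The 24 measured genes that process and load small RNAs had 0 calls and a median of −0.04. Among them the Argonaute genes Ago1, Ago2, Ago3 and Ago4 had log2 fold changes of −0.09, −0.14, −0.04 and −0.08.

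Few glial and neuronal markers were called. Among 20 microglial genes 0 were called, with a median of −0.07. Without Vehicle 4 only Cx3cr1, the microglial fractalkine receptor, passed the threshold, at −0.34, where 2.81% of all genes fell. Aif1, which encodes the microglial protein IBA1, measured 5.31 to 10.7 CPM in Vehicle and 3.78 to 8.09 CPM in Control mice, a log2 fold change of −0.26 (SE 0.42). Gfap, the astrocyte intermediate filament, measured 507, 617, 524, 362 and 564 CPM and then 547, 821, 535, 440 and 579 CPM, a log2 fold change of 0.18 (SE 0.22, unadjusted p = 0.406 by edgeR). The 15 astrocyte genes had 0 calls. Of 21 genes of reactive astrocytes only Steap4, a metalloreductase, fell (4.76%, against 3.41% of all genes), which it did not without Vehicle 4. Among the endothelial and pericyte, neuronal, CA1, dentate granule, interneuron and neocortex lists 0 genes were called with all libraries. Coch, on the CA3 list of 6 genes, alone fell there with all libraries (−0.96). This is 16.7% of that list, against 3.41% of all genes. Coch passed no threshold without Vehicle 4.

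On the thalamus list only Gbx2, a transcription factor of the thalamus, rose (7.69% of the 13 genes, against 1.70% of all genes). Its level was 1.55 CPM in Control 4 alone and at or under 0.0921 CPM, below the floor, in the other 9 mice. The 13 genes of that list summed to 430 CPM in Control 4, against 228 to 301 CPM in the other Control and 282 to 317 CPM in the Vehicle mice. Among the immediate early, glucocorticoid-responsive, circadian, heat shock, vesicle release, glutamate receptor, GABA-A receptor, neuropeptide and blood lists 0 genes were called, with all libraries or without Vehicle 4. Their medians lay between −0.03 for glutamate receptors and 0.31 for the 8 blood genes with all libraries. Of 45 replication-dependent and related histone genes H2bu2 alone rose (2.22%, against 1.70% of all genes).

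Synaptotagmins are a family that includes calcium sensors of vesicle fusion, and the study follows its member Syt2 in the mice given patient sRNA. The family had 2 calls among 16 measured genes (12.5% fell, against 3.41% of all genes). Syt2, the form of fast-releasing interneuron terminals, measured 37.0, 26.2, 30.1, 21.6 and 18.6 CPM in Vehicle 1 to 5 and 26.3, 20.1, 20.1, 20.4 and 23.6 CPM in Control 1 to 5. The Control mice lay within the Vehicle range, whose SD of 7.24 CPM exceeded in size the difference of the means, −4.64 CPM. The log2 fold change was −0.28 (SE 0.22, edgeR's quasi-likelihood test, unadjusted p = 0.228, adjusted p = 0.877), and an exact two-sided permutation test of the CPM gave p = 0.230, where 0.00794 is the smallest p that 5 mice against 5 can give. For Syt2 this log2 fold change was −0.34 without Vehicle 4, with an exact permutation p = 0.190, and −0.09 without Vehicle 1 and 2.

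Syt1, the main sensor of fast release in excitatory neurons, averaged 1549 ± 150 CPM in Vehicle and 1519 ± 170 CPM in Control mice (SD, n = 5 each), a log2 fold change of −0.03 (SE 0.11). Syt11 averaged 779 ± 33.8 and 722 ± 64.0 CPM, with an exact two-sided permutation p = 0.0714 and p = 0.429 adjusted over the 6 genes tested this way. Pvalb, the calcium-binding protein that marks fast-spiking interneurons, measured 20.6 to 29.8 CPM in Vehicle mice and 43.0, 34.0, 27.9, 18.6 and 19.7 CPM in Control 1 to 5, so that the Control mice spanned both sides of the Vehicle range (log2 fold change 0.23, SE 0.21). The 2 that fell were Syt6 and Syt9. Syt6 measured 6.99 to 11.8 CPM in Vehicle and 5.70 to 7.24 CPM in Control mice, a log2 fold change of −0.41 (−0.47 without Vehicle 4). Syt9 had −0.69, its highest mouse was Vehicle 2 at 15.8 CPM, and it passed no threshold without Vehicle 4 (−0.71, unadjusted p = 0.0574 by edgeR). Without Vehicle 1 and 2, or without Control 1 and 2, 0 of the 16 genes were called.

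Vehicle 1 and 2 were the highest of the 10 mice for the summed 7 ribosomal RNA-like genes and 61 small structural RNA genes. The latter summed to 47.9 and 58.4 CPM, against 11.6 to 20.5 CPM in the other 8. Such RNAs mostly carry no poly(A) tail, and a library selected for polyadenylated RNA holds tailless RNA only as carry-over. The 45 replication-dependent and related histone genes were not highest in Vehicle 1 and 2. They summed to 99.3 and 108 CPM in Vehicle 1 and 2 and to 88.1 to 130 CPM in the other 8. The part of carry-over in any of these sums was not tested. The ribosomal RNA-like genes were also high in mice given patient sRNA. They summed to 1753 to 13976 CPM in Pool 1 and 3435 to 9590 CPM in Pool 2. Gm42418, a locus that resembles ribosomal RNA, measured 4396, 4344, 544, 1175 and 1631 CPM in Vehicle 1 to 5 and 470 to 1556 CPM in Control mice, a log2 fold change of −1.29 that missed the threshold (unadjusted p = 0.0586 by edgeR). Gm23935 and Mir6236, loci annotated as microRNA genes and counted among the 7 ribosomal RNA-like genes, fell with log2 fold changes of −1.56 and −1.28. They were the 2 of the 7 that fell with all libraries (28.6%, against 3.41% of all genes). Without Vehicle 4 5 of the 7 fell, where 2.81% of all genes did. Without Vehicle 1 and 2 0 of the 7 fell, where 2.14% of all genes did. Rn7sk, the 7SK RNA that holds back transcription elongation, measured 34.5, 41.3, 1.94, 4.70 and 8.14 CPM in Vehicle 1 to 5 and 5.90, 1.31, 5.11, 3.42 and 8.62 CPM in Control 1 to 5. Its log2 fold change of −1.90 became −0.01 without Vehicle 1 and 2.

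The same mice were the highest for Rny3, the mouse Y3 RNA, a small cytoplasmic RNA bound by the Ro60 protein. It measured 1.18, 2.25, 0.565, 0.219 and 0.233 CPM in Vehicle 1 to 5 and 0.224, 0, 0.460, 0.0795 and 0.221 CPM in Control 1 to 5, so most Control values lie within a few counts of the floor. Its log2 fold change of −2.19 became −0.83 without Vehicle 1 and 2. The transcript of 102 bases on chromosome 6 is shown from GENCODE M21, 5′ to 3′ and with no letters marked, because it is short enough for a single read to cover much of it.
Rny3: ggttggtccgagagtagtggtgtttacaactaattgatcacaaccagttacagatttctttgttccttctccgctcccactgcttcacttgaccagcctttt

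MicroRNA genes could hardly be read at this depth. These libraries count reads over precursor loci and host transcripts and not mature microRNAs, and 24 of the 180 microRNA genes had a mean count of at least 10. Of the 180 genes 1 rose and 10 fell (0.556% and 5.56%, against 1.70% and 3.41% of all genes), and without Vehicle 4 4 rose and 11 fell. Mir212, the precursor of an activity-regulated neuronal microRNA, measured 0.216 to 0.351 CPM in Vehicle and 0 to 0.276 CPM in Control mice, and Mir6955 measured 0.173 to 0.727 and 0.0460 to 0.221 CPM. Mir8103 and Mir6240 fell with Vehicle means of 0.214 and 0.129 CPM. Mir344i, Mir7059, Mir6390, Mir6913 and Mir6948 had 0 counts in all Control mice and Vehicle means of 0.0445 to 0.0616 CPM, below the floor, so no fold is given.

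The Pool 1 and Pool 2 mice, given sRNAs from patients, were compared with the same 5 Vehicle mice, so their values share those samples and are given only side by side. The log2 fold change of Neat1 was −0.68 in Control, −0.72 in Pool 1 and −0.36 in Pool 2, and that of Col6a3 was −1.24, −1.78 and −1.45. Adk had 0.31, 0.10 and 0.29, and Trim25 −0.47, −0.26 and 0.10. Ribosomal protein genes had medians of 0.25, 0.02 and 0.20, interferon-stimulated genes of −0.46, −0.47 and 0.65, and motile cilia genes of −0.66, −0.62 and −0.51. In all 3 comparisons a Vehicle mouse far from the others moves every value at once. The interferon value of Pool 2 also followed 1 mouse, in which the 31 genes summed to 828 CPM, against 161 to 243 CPM in the other 4.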

How the data were processed

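The authors made stranded libraries from poly(A)-selected RNA, sequenced single-end reads, checked them with FastQC 0.11.5 and aligned them to mm10 with STAR (tools and build per the labels). They deposited 1 table of raw counts per gene, already without genes whose counts summed to under 10 over the 20 libraries. The unit is the count, with no normalization.

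The test was edgeR's quasi-likelihood F test (version 4.0.16, R 4.3.3, TMM factors, robust glmQLFit), fitted once to the 20 libraries with a mean for each of the 4 groups, and p-values were adjusted after Benjamini and Hochberg over all genes. SE is the absolute log2 fold change divided by the square root of the F statistic. Exact permutation tests were two-sided. Alternatives were DESeq2 1.42.0, its size factors, 2 filters, other sets of libraries, a replicate block and the removal of single libraries. The edgeR and DESeq2 fits were tested on simulated counts in which some genes were changed between Vehicle and Control. Where nothing says that animals were processed apart, p-values measure the spread between these samples.

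Named genes were 6 that the study mentions as gene or protein, namely Syt2, Syt1, Syt11, Pvalb, Gfap and Aif1. Further ones were the 10 genes each way with the smallest p and a mean count of at least 10. The 5 each way with the highest level, and members of 35 lists called with and without Vehicle 4, were also named. Any other gene is an example chosen after its values were seen. Genes picked for a small p or a call tend to separate the groups, so their lack of overlap is no further support. The members and lists were chosen with earlier results of these data known, and 4 lists (oxidative phosphorylation, motile cilia, ribosomal protein pseudogenes, collagens) after the values had been seen. List genes were matched by symbol and, for renamed genes, by identifier to GENCODE M21, which gave exon lengths. Names the table shows as dates were replaced by those of M21. Reads of pseudogenes and of their parent genes may be split between them. Columns of fold changes or p-values were not in the table. Replicate numbers did not pair the mice: same-numbered Vehicle and Control mice correlated at −0.34 to 0.01 in their deviations from the group means. Intervals and floors cover counting error only.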

Additional observations from a re-analysis of the deposited data

Results flagged for a closer look

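In each group of 5 mice the highest or lowest mouse was set against the others, for each named gene and each list sum. Of 206 such groups 16 had a mouse whose gap to its nearest neighbour took up more than 0.71 of the range, where chance gives about 1 in 20. Control 3 was the highest Control mouse for Whrn at 21.7 CPM and for Col6a3 at 7.23 CPM, and for the summed choroid plexus markers at 2403 CPM. Vehicle 4 was the highest Vehicle mouse for Abhd2 at 226.5 CPM, Tbc1d9 at 190.2 CPM and the choroid plexus sum of 9467 CPM, and the lowest for the sum of microRNA genes at 322.1 CPM. Control 5 was the lowest Control mouse for Syt11 at 612.0 CPM and the highest for the sum of neocortex markers at 160.7 CPM, and Vehicle 1 the highest of its group for neocortex at 180.1 CPM. Vehicle 1 was the lowest for the sum of mitochondrially encoded genes at 38106 CPM. Vehicle 3 stood out upward for the sum of CA1 markers at 1036 CPM and for Mir7059 at 0.121 CPM, and Vehicle 2 downward for Mir212 at 0.216 CPM. Gbx2 was at 1.55 CPM in Control 4 alone. The sum of ribosomal protein pseudogenes was highest in Vehicle 5 at 72.5 CPM within its group. The part of these mice in the results was not tested beyond the values without Vehicle 4, Vehicle 1 and 2, or Control 1 and 2.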

How the results depend on the processing

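No gene passed an adjusted p of 0.05 under any alternative by edgeR or DESeq2, except 2 genes without Vehicle 1 and 1 gene without Vehicle 1 and 2 (0 to 2 over the replicates left out). The 427 upward calls became 239 with a mean count of at least 10, 257 without Vehicle 1 and 2 and 253 without Control 1 and 2. They ranged from 259 to 793 when 1 mouse was left out, moving by over 1.5 times without Control 1 (266), Control 2 (259), Control 4 (793) or Vehicle 5 (704). The 858 downward calls became 556 with a mean count of at least 10 and 483 with filterByExpr, both of which test fewer genes, 543 with DESeq2 without Vehicle 4 and 540 without Vehicle 1 and 2, and ranged from 659 to 1123 when 1 mouse was left out. With the replicate block there were 358 upward and 695 downward calls, and no mouse correlated best with its own number. Leaving out 2 mice of a group, and DESeq2 without Vehicle 4, were chosen after seeing the data. Of 58 named genes past the threshold, 18 kept their call under every alternative, and 35 lost it without Control 1 and 2. The sign turned for 3 genes. The log2 fold change of Syt1 went from −0.03 to 0.0049 with 18 libraries, 0.015 by DESeq2 without Vehicle 4 and 0.0097 without Control 1 and 2, and lay between −0.082 and 0.014 with 1 mouse left out. The log2 fold change of Pvalb was −0.15 without Control 1 and 2, and the log2 fold change of Cntn2 was 0.00067 without Vehicle 1 and 2. The cause of these changes was not tested. At 20588280 to 25543939 counts per library, differences of genes under the floor of 3 counts were not detectable.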

Other observations

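Processed pseudogenes Gm5869, Gm13456 and Eef1a1-ps1 divided the mice into high and low ones across the group labels. They were picked after their values were seen, and the first 2 are the genes that passed an adjusted p of 0.05 by edgeR when Vehicle 1 was left out. Gm5869 measured 2.91, 0.216, 0.202, 0.132 and 0.0931 CPM in Vehicle 1 to 5 and 4.74, 3.41, 3.13, 3.54 and 0.575 CPM in Control 1 to 5. Vehicle 1 and Control 1 to 4 were thus high, and Control 5 and the other Vehicle mice low. Gm13456 had the same high and low mice, at 20.2 CPM in Vehicle 1, 3.07 to 5.91 CPM in Vehicle 2 to 5, 20.7 to 27.1 CPM in Control 1 to 4 and 5.66 CPM in Control 5. Eef1a1-ps1, a pseudogene of the elongation factor gene Eef1a1, measured 5.81 CPM in Vehicle 1, 1.10 to 1.96 CPM in Vehicle 2 to 5, 4.46 to 8.23 CPM in Control 1 to 4 and 1.42 CPM in Control 5.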
